A study of Mus musculus with 2 samples.

Results

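The 8 microRNA genes described here each lie in an intron of a host gene that has been studied in neurons: Mir153 in Ptprn2, Mir218-1 in Slit2, Mir218-2 in Slit3, Mir488 in Astn1, Mir383 in Sgcz, Mir326 in Arrb1, Mir342 in Evl and Mir346 in Grid1. They were chosen by name, with earlier results of these data known, and all 8 were found among the 2202 microRNA genes of the count tables. Short RNA was sequenced from left cerebral cortex, taken from females aged 10 days. The mice were B6CASTF1/J, first-generation hybrids of C57BL/6J and the wild-derived CAST/EiJ strain. The series holds 1 group of 2 libraries, which the labels call biological replicates 1 and 2 (animals 1 and 2 here) and which come from differently numbered females under a shared donor entry. No treatment, genotype or other tissue was compared, so the results are levels and the difference between the animals.

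MicroRNAs are cut from hairpin transcripts and guide the repression of messenger RNAs through a short seed at bases 2 to 8 of the mature strand. A microRNA inside an intron on the strand of its host is usually transcribed together with the host and released from the intron by the nuclease Drosha. Slit2 and Slit3 encode secreted ligands of Robo receptors in axon guidance, Grid1 a glutamate receptor subunit of synapses, and Astn1 a membrane protein of neurons migrating along glia. Ptprn2 encodes a protein of secretory vesicles, Evl an actin regulator of the Ena/VASP family, Arrb1 a beta-arrestin that ends signalling of G protein-coupled receptors, and Sgcz a sarcoglycan. Host transcripts were not measured here, so nothing below speaks of host expression.

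Mature sequences were taken from RefSeq (GRCm38.p6), where 7 of the 8 genes were matched. They are shown 5′ to 3′ with the seed in capitals, because microRNAs with the same seed form a family. Counts were deposited per hairpin, which sums both arms, so the arm behind a count is not known. The first family is miR-218, made from both Slit introns, with miR-7002-3p, and the second is the seed that Mir326 shares with Mir330.
mmu-miR-218-5p: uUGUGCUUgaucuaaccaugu
mmu-miR-7002-3p: uUGUGCUUccccuugccag
mmu-miR-326-3p: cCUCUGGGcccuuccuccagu
mmu-miR-330-5p: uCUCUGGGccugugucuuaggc

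The other matched members (Mir342, Mir488, Mir153 and Mir346) had seeds of their own on the arms shown next, apart from miR-346-3p. None of the other 5 seeds was found in another mature microRNA of the RefSeq table, which holds 1738 entries. Both arms of Mir346 are given, since its bases are referred to again with the difference between the animals, and its 3p seed also stands in mmu-miR-7001-5p, whose gene Mir7001 had no read.
mmu-miR-342-3p: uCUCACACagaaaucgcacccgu
mmu-miR-488-3p: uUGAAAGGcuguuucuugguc
mmu-miR-153-3p: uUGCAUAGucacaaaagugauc
mmu-miR-153-5p: gUCAUUUUugugacguugcagcu
mmu-miR-346-5p: uGUCUGCCcgagugccugccucu
mmu-miR-346-3p: aGGCAGGGgcugggccugcagc

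All 8 hairpins lay on the strand of their host, in an intron of every protein-coding host transcript that spans them (mm10, GENCODE M21). Mir342 (chromosome 12, 108658620 to 108658718) lay in intron 3 of 13 of Evl. Mir383 (chromosome 8, 38252133 to 38252202, minus strand) lay in intron 1 of 7 of Sgcz, which spans 708 kb and is the longest of the 8 introns. Mir346 (chromosome 14, 34894609 to 34894706) lay in intron 2 of 15 of Grid1, and Mir326 (chromosome 7, 99552269 to 99552363) in intron 1 of 14 of Arrb1. Mir488 (chromosome 1, 158505625 to 158505733) lay in intron 5 of 22 of Astn1, 155 bases after the exon. Mir153 (chromosome 12, 117250817 to 117250885) lay in intron 19 of 22 of Ptprn2. These intron numbers refer to 1 principal transcript per host, and an antisense gene overlaps Mir153 (Gm5441) and Mir488 (Gm37679) on the opposite strand.

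The Slit hairpins occupied matching places. Mir218-1 (chromosome 5, 48223942 to 48224051) lay in intron 14 of 35 of Slit2, and Mir218-2 (chromosome 11, 35616816 to 35616925) in intron 14 of 35 of Slit3. The hairpins are shown here with their longest common stretch in capitals, because it limits how their reads can be assigned.
Mir218-1 hairpin: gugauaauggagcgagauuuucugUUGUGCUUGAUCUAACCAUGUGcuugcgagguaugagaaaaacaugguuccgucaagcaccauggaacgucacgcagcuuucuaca
Mir218-2 hairpin: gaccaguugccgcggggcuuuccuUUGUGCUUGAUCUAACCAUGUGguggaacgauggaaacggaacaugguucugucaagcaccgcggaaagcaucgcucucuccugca

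Both hairpins were 110 bases long, and 76 positions matched in a global alignment of 113 columns (67.3% identity). The common stretch of 22 bases began at base 25 in each and covered the whole 5p arm of 21 bases. A read that lies inside it maps to both genes. The annotated 3p arms differ: their longest common run was 10 bases. For the other 5 matched members, the longest run shared with any of the 1005 RefSeq hairpins was 10 to 14 bases, shorter than a mature microRNA.

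The host genes were long. Their median length was 458 kb, with a range from 71.3 kb for Arrb1 to 1139 kb for Sgcz, against a median of 77.8 kb for the hosts of the 764 other microRNA genes in a same-strand intron of a protein-coding gene. Host genes were part of how the 8 were chosen, so this is a description and was not tested. No other listed microRNA gene lay in an intron of these 8 hosts. The nearest listed microRNA gene stood between 63.1 kb (Mir342) and 4005 kb (Mir346) away.

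**Figure D1:**
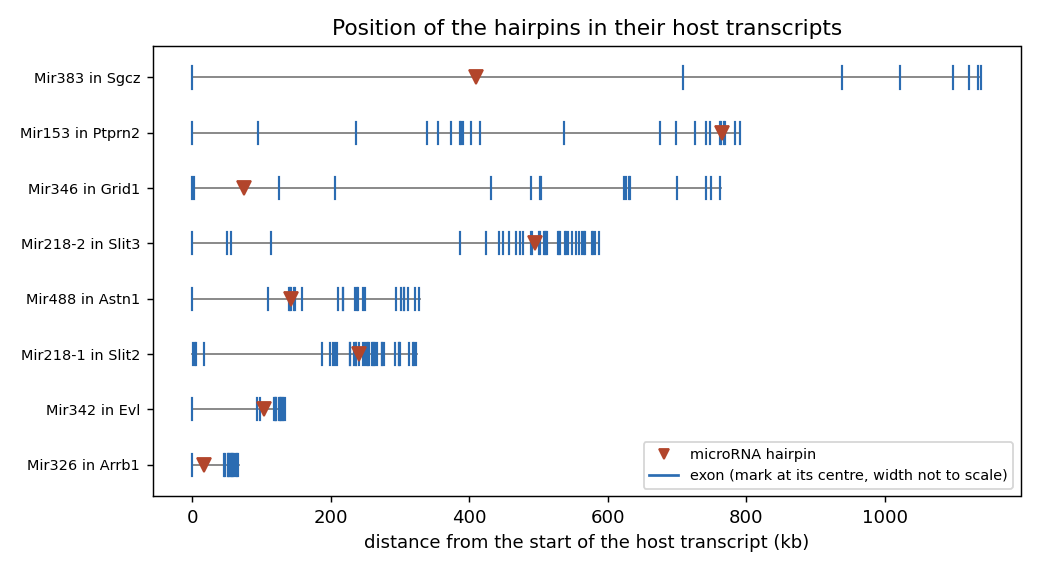
Host transcripts drawn as grey lines from their start, with distance in kb on the horizontal axis. Blue marks are exon centres and red triangles the hairpins. Mir346 and Mir326 stand nearest to the start of their transcripts, at 9.76 and 24.5% of the span, and Mir153 near the end, at 96.7%.

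The libraries held 3806078 (animal 1) and 2602935 (animal 2) reads on the own strand of microRNA genes. Levels are given as CPM, the reads of a gene per 1000000 reads so counted, with exact Clopper-Pearson 95% intervals for a single library. These intervals cover the counting error of reads only. The files show no molecular identifiers, so copies of the same molecule could not be told from separate molecules. Means over both animals carry an SD that rests on a single difference (n = 2). The libraries were selected for short RNA, where a read stands for a whole mature strand, so levels were not divided by hairpin length.

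The 7 detected genes spanned 120-fold in mean level, and 2 of them held most of the reads. With Mir218-1, which rests on 30 and 25 reads, the span was 789-fold. Both spans end at a gene of the mir-218 pair, whose levels may be too low because reads in their common stretch map to both. The summed share of the 8 genes was 1.28% of counted reads (1.27 to 1.29) in animal 1 and 1.08% (1.07 to 1.10) in animal 2. Mir342 and Mir383 made up 82.6% of these reads in animal 1 and 89.0% in animal 2. At 10 CPM or more in both libraries, 7 of the 8 genes were detected, against 13.9% of all 2202 microRNA genes. At 1 CPM all 8 were, against 23.5% of all genes, and at 100 CPM 5 were (Mir342, Mir383, Mir326, Mir346 and Mir488), against 8.99%. Of all 2202 genes, 1432 had no read in either library, and the 8 were chosen with earlier results known. These shares are therefore a description and no test.

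Mir342, from the Evl intron, was the highest. It had 27874 reads in animal 1 and 16864 in animal 2, or 7324 CPM (7238 to 7410) and 6479 CPM (6382 to 6577), a mean of 6901 ± 597 (SD, n = 2). It ranked at place 30 of 2202 by mean CPM. Mir383, from the long first intron of the sarcoglycan gene Sgcz, had 12284 and 8260 reads, or 3227 CPM (3171 to 3285) and 3173 CPM (3105 to 3242), with a mean of 3200.4 ± 38.3 and place 55. Relative to its mean, Mir383 differed least of the 8 between the animals (SD 1.2% of the mean), and its intervals overlap.

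Mir326, Mir346 and Mir488 formed a middle group. Mir326, from the beta-arrestin gene Arrb1, had 3142 reads in animal 1 and 1106 in animal 2, or 826 CPM (797 to 855) and 425 CPM (400.2 to 450.7), a mean of 625 ± 283. Mir346, from the glutamate receptor gene Grid1, had 3010 and 663 reads, or 791 CPM (763 to 819.6) and 255 CPM (236 to 275), a mean of 523 ± 379. Mir488, from Astn1, had 1622 and 960 reads, or 426 CPM (406 to 447) and 369 CPM (346 to 393), a mean of 397 ± 40.5. Both Mir326 and Mir346 were high in animal 1 and low in animal 2, while Mir488 was slightly higher in animal 1, by 1.16 times before TMM scaling.

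The lowest 3 were Mir153 and the mir-218 pair. Mir153, from Ptprn2, had 444 and 202 reads, or 117 CPM (106 to 128) and 77.6 CPM (67.3 to 89.1), a mean of 97.1 ± 27.6. Mir218-2, from Slit3, had 233 and 140 reads, or 61.2 CPM (53.6 to 69.6) and 53.8 CPM (45.2 to 63.5), a mean of 57.5 ± 5.26. Mir218-1, from Slit2, had 30 and 25 reads, or 7.88 CPM (5.32 to 11.3) and 9.60 CPM (6.22 to 14.2), a mean of 8.74 ± 1.22. Mir218-1 was the only member under the detection threshold, and Mir218-2 was the next member in level. Both levels may be too low, since reads inside their common stretch map to both genes. The intervals of Mir218-1 include 10 CPM in both libraries.

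**Figure D2:**
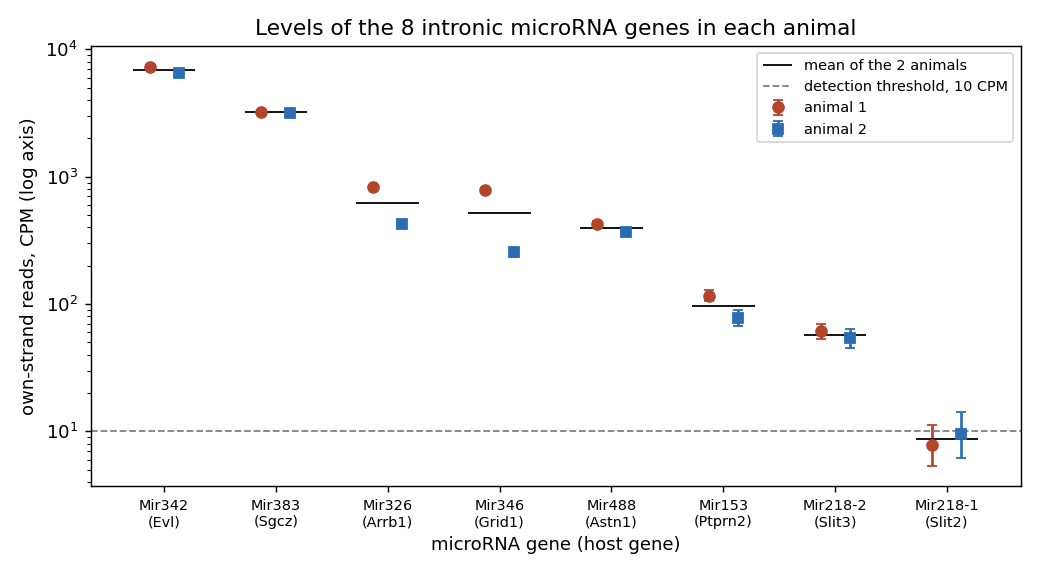
CPM of each gene on a log axis, by gene and host. Red circles are animal 1, blue squares animal 2, error bars exact 95% counting intervals and black lines the means; the dashed line is 10 CPM. The animals stand apart most for Mir346 (791 and 255 CPM) and Mir326 (826 and 425 CPM), and Mir218-1 lies under the line in both.

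In the order of levels, 5 of the 7 neighbouring pairs kept the same order in both animals with ranges that did not overlap. These were Mir342 above Mir383, Mir383 above Mir326, Mir488 above Mir153, Mir153 above Mir218-2, and Mir218-2 above Mir218-1. Pairs with a mir-218 gene are ordered by counted reads only. Reads in the common stretch of the mir-218 genes map to both, so their true places are uncertain. Mir326 was above Mir346 in both animals, by 1.04 times in animal 1 and 1.67 times in animal 2, but their ranges over the animals overlapped. Mir346 was 1.86 times Mir488 in animal 1 and 0.691 times Mir488 in animal 2, so the order of these genes was not settled by the 2 animals.

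**Figure D3:**
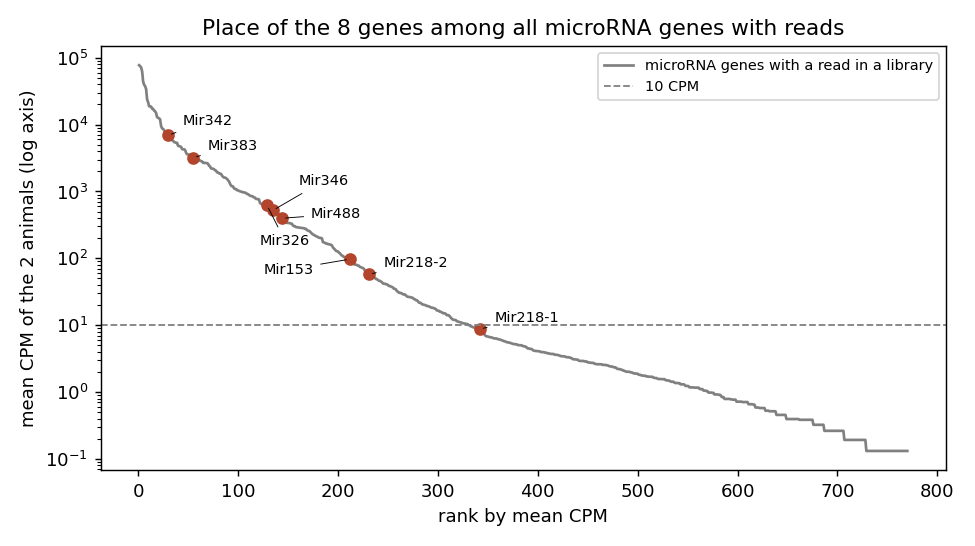
Mean CPM on a log axis against rank for the 770 microRNA genes with a read in a library (grey line), with the 8 genes as red points and 10 CPM as a dashed line. The points run from place 30 (Mir342) to place 342 (Mir218-1).

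The mir-218 pair shares its 5p strand, and its levels are therefore uncertain. The level of Mir218-2 was 7.77 times that of Mir218-1 in animal 1 and 5.60 times in animal 2, on the CPM scale. Together the pair held 69.1 CPM in animal 1 and 63.4 CPM in animal 2. The tables count multimapping reads apart from the genes, at 42.7% of all reads in animal 1 and 40.4% in animal 2, and do not say which microRNAs they come from. Reads inside the 22-base stretch shown above fit both genes, so the level of miR-218 may be too low. Which reads of the pair were counted is not given either. Mir7002, which has the same seed on its 3p arm, had 5 reads in animal 1 and none in animal 2.

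Of the 2 genes with the seed of miR-326-3p, Mir330 had most of the counted reads, summed over both arms. Mir330 lies in a same-strand intron of Eml2 and is printed above with the seed CUCUGGG. It had 7648 CPM in animal 1 against 6594 CPM in animal 2, with a mean of 7121 ± 746. This was 9.26 times Mir326 in animal 1 and 15.5 times in animal 2. Of the summed level of these 2 genes, Mir326 supplied 9.74% in animal 1 and 6.05% in animal 2. The mature strands share a run of 9 bases, CUCUGGGCC. The sums include the opposite arms of both hairpins, so they are levels of genes and not of the seed itself.

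All counted reads of the 8 genes lay on the gene's own strand. None had a read on the opposite strand in either animal, which allows up to 0.788 CPM in animal 1 and 1.15 CPM in animal 2 for each. That holds for Mir153 and Mir488 too, where an antisense gene is annotated.

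Between the animals, 4 of the 8 genes differed beyond the counting noise of reads. These calls used TMM scaling (trimmed mean of M-values, which sets the bulk of genes as equal). By a two-sided exact conditional binomial test with Benjamini-Hochberg adjustment over 531 genes, 3 were higher in animal 1 (Mir346, Mir326 and Mir153) and 1 in animal 2 (Mir383). Of the 531 genes tested, 51.6% were called, 26.9% higher in animal 1 and 24.7% higher in animal 2. A count of 4 in 8 is thus near the background, and the test compares these 2 libraries and no conditions.

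Mir346 differed most among the 8. It was 2.70-fold higher in animal 1 (log2 ratio 1.43, 95% interval 1.31 to 1.55, exact binomial test, adjusted p = 1.2e-141), and 87.8% of the tested genes had a smaller log2 ratio in absolute size. Mir326 was 1.69-fold higher in animal 1 (log2 ratio 0.75, interval 0.66 to 0.86, adjusted p = 1.3e-53, exact binomial test), with 66.1% of tested genes showing a smaller one. Mir153 was 1.30-fold higher in animal 1 (log2 ratio 0.38, interval 0.14 to 0.63, adjusted p = 0.0036, exact binomial test). Mir383 was 1.13-fold higher in animal 2 (log2 ratio -0.18, interval -0.22 to -0.14, adjusted p = 1.9e-17, exact binomial test), and this call rests on scaling: with library totals only, its log2 ratio was 0.024 (adjusted p = 0.335, exact binomial test).

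Across scalings the counts shifted. With library totals only, 5 of the 8 were higher in animal 1 (Mir346, Mir326, Mir153, Mir342 and Mir488), against 35.6% of the tested genes, and 0 in animal 2, against 17.1%. Under the size factors of DESeq2, calls for animal 1 numbered 3, against 24.1% of the tested genes, and calls for animal 2 were Mir383 and Mir342, against 27.5%. Mir346, Mir326 and Mir153 were called higher in animal 1 under each of these scalings.

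The remaining 4 did not pass the test. Mir342 had a log2 ratio of -0.026 (interval -0.054 to 0.0014, adjusted p = 0.112, exact binomial test), Mir488 of 0.0051 (-0.11 to 0.12), Mir218-2 of -0.018 (-0.32 to 0.30) and Mir218-1 of -0.49 (-1.30 to 0.34). For Mir342 and Mir488 the intervals leave room for only a small difference on this scale. For Mir218-1, with 30 and 25 reads, a difference of 1.41-fold was not detectable at this depth. The call for Mir342 also depended on scaling: with library totals only it was higher in animal 1 (log2 ratio 0.18, adjusted p = 9.1e-36, exact binomial test), and with DESeq2 size factors higher in animal 2 (log2 ratio -0.08, adjusted p = 1.5e-07, exact binomial test). Over the 6 alternatives run, its adjusted p went from 9.1e-36 to 1, and that of Mir383 from 4.7e-28 to 1, the upper end coming from edgeR's negative binomial test with the spread between the animals. Library totals moved the median ratio of all tested genes up by 0.20 on the log2 scale, which is more than the ratio of Mir342, Mir488 or Mir383.

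**Figure D4:**
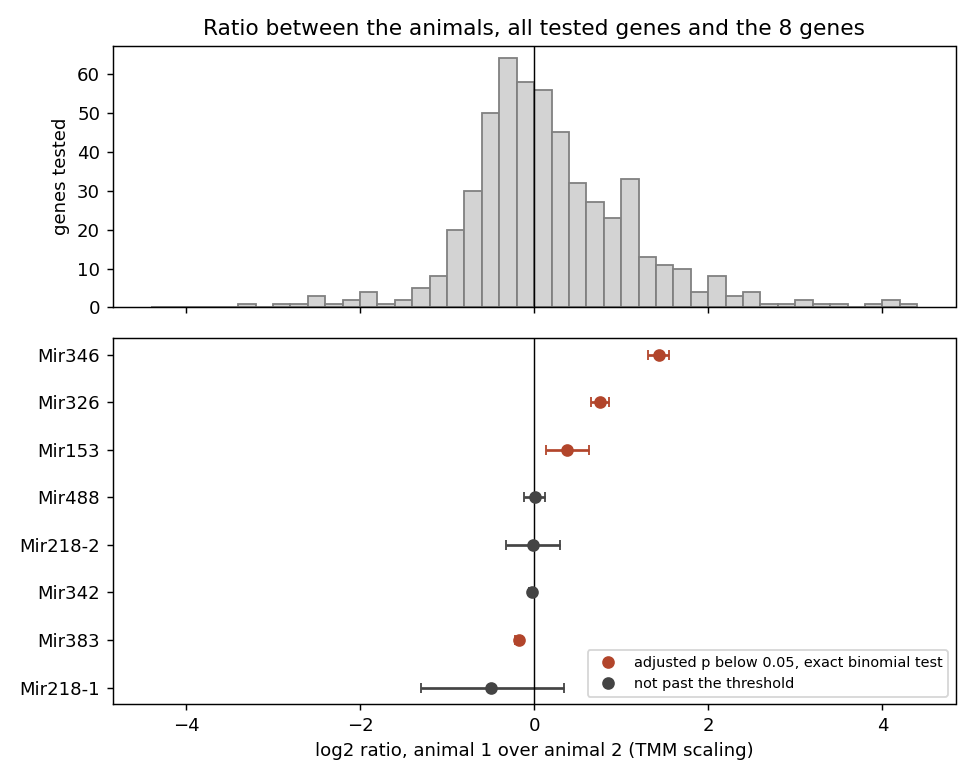
Upper panel, histogram of the log2 ratio of animal 1 over animal 2 for the 531 genes tested; lower panel, the same ratio for the 8 genes with exact 95% intervals. Red points passed the exact binomial test after adjustment and dark points did not; Mir346 lies farthest from 0, at 1.43, and within the spread of all tested genes.

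The spread between the animals could not be separated from the differences under test, since each side of the comparison is 1 library. Over all tested genes the common biological coefficient of variation came to 38.0% (edgeR, estimated from the same 2 libraries). With that spread, edgeR's exact negative binomial test called 0 of the 8 genes, both after adjustment and at an unadjusted p under 0.05, where Mir346 had p = 0.0765. Over all 531 genes it called 1 after adjustment, or 0.188%, and 33 unadjusted, or 6.21%. Because the compared difference itself enters that spread, these counts do not show that the 8 genes were alike in the animals.

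Base composition moved with the ratio between the libraries. G and C made up 65.3% of the Mir346 hairpin and 60.0% of the Mir326 hairpin, more than in 92.6 and 81.0% of RefSeq hairpins. The other 5 matched members had 42.0% (Mir153), 42.2% (Mir488), 45.5% (Mir218-1), 51.5% (Mir342) and 54.5% (Mir218-2). Over the 453 tested genes with a hairpin in RefSeq (85.3% of those tested), the median log2 ratio was -0.11 in the 155 genes with the lowest share of G and C, 0.0049 in the next 148 and 0.37 in the 150 with the highest. Across these genes, which are no replicates and come from 1 pair of libraries, Pearson's r was 0.21 and Spearman's rho 0.24. Among the 150 genes richest in G and C, 86.7% had a lower ratio than Mir346 and 64.0% a lower ratio than Mir326. Among the 155 poorest, 74.8% had a lower ratio than Mir153. The part of base composition in these differences was not tested.

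**Figure D5:**
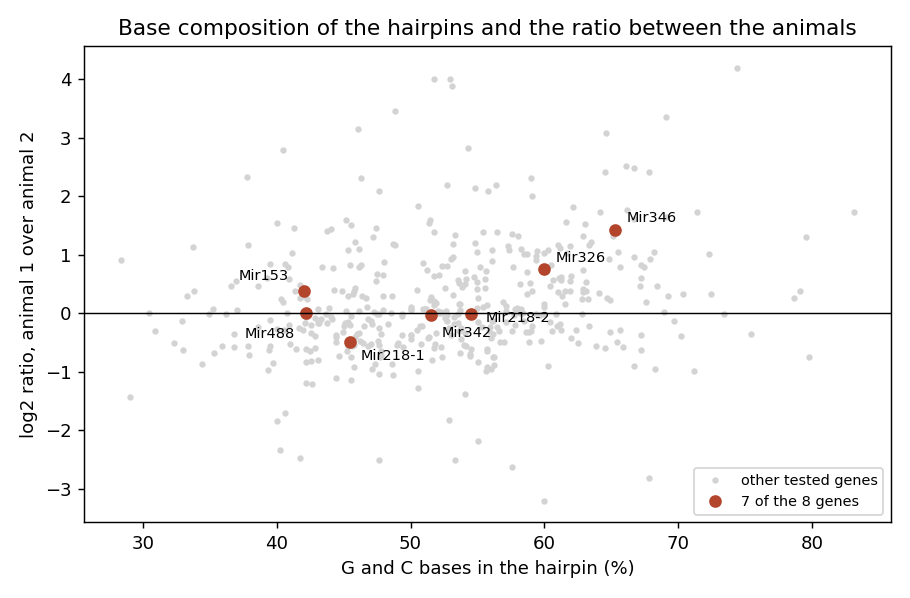
Share of G and C bases in the hairpin against the log2 ratio of animal 1 over animal 2, for 453 tested genes (grey) and 7 of the 8 genes (red). Mir326 and Mir346 stand at the right, at 60.0 and 65.3%, with ratios of 0.75 and 1.43, while Mir153 has a ratio of 0.38 at 42.0%.

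Predicted folding is given for the 7 members with a RefSeq hairpin, without Mir383. The minimum free energy from RNAfold was -0.53 kcal/mol per base for Mir326, -0.51 for Mir346, -0.47 for Mir342 and -0.45 for Mir153. It was -0.38 for Mir218-2, -0.36 for Mir488 and -0.33 for Mir218-1, against a median of -0.41 over all 1005 RefSeq hairpins.

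In bulk tissue, fewer cells of a type and less RNA per cell cannot be told apart. Among 9 neuronal marker genes all had reads, with a summed level of 4.07 and 4.16% of counted reads in animals 1 and 2. The 3 copies of Mir124a, a defining neuronal microRNA, had at most 13 reads each, with the same limit on multimapping reads as the mir-218 pair. Endothelial Mir126a held 2.89 and 0.826%, the pericyte and smooth muscle pair 0.315 and 0.452%, 5 microglial and blood genes 0.159 and 0.194%, and 3 oligodendrocyte genes 0.119 and 0.164%. The 3 erythroid genes held 0.00780 and 0.00465%, and 4 genes of ciliated cells and choroid plexus 0.111 and 0.150%. No gene of these lists was at 0 in both libraries. The endothelial gene and the erythroid sum were higher in animal 1, as were Mir346, Mir326 and Mir153, while the other sums were higher in animal 2. Of the 3 erythroid genes only Mir486 was detected, at 28.9 CPM in animal 1 and 28.8 CPM in animal 2. Against its list, oligodendrocyte Mir219a-1 had 20.2 CPM in animal 1 and 1.54 CPM in animal 2. By CPM, neuronal Mir137 (9278 and 7888 in animals 1 and 2), Mir138-1 (2865 and 2472) and Mir138-2 (1153 and 1025) were higher in animal 1. So were the 3 copies of Mir124a, while Mir128-1, Mir128-2 and Mir132 were higher in animal 2. Mir204 (865 and 751 CPM) and Mir155 (53.3 and 51.9 CPM) also went against the sums of their lists. The part of these cell types in the result was not tested.

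The level of Mir342 was closest to that of Mir330 among all 2202 genes, at a distance of 0.07 on the log2(CPM + 0.5) scale over the 2 libraries, followed by Mir541 at 0.10. Mir383 was closest to Mir341 (0.11) and Mir335 (0.15), and Mir488 to Mir331 and Mir31 (both 0.12). Mir326 was closest to Mir425 (0.26) and Mir665 (0.31), and Mir346 to Mir106b (0.47) and Mir877 (0.51). Mir153 was closest to Mir542 (0.17) and Mir25 (0.44), and Mir218-2 to Mir701 and Mir155 (both 0.20). With 2 libraries, likeness says little beyond a similar level.

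Other intronic microRNAs were set beside the 8. Of 19 further intronic microRNA genes, listed for hosts known from neurons, 14 were detected (73.7%), with a median of 56.1 CPM over all 19, where the 8 had a median of 460.1. Over detected genes alone the order was the other way, with medians of 695 CPM for the 14 and 523 CPM for the 7. Mir139, which the annotation places in a same-strand intron of the predicted gene Gm45837, led at 74843 CPM ± 4379, followed by Mir149 (18792 ± 10908), Mir128-1 (16214 ± 1304) and Mir128-2 (5851 ± 310). Of 17 tested, 7 were higher in animal 1, 6 in animal 2 and 4 did not pass, where 26.9% of all tested genes were higher in animal 1 and 24.7% in animal 2. The Mir128 genes are 2 copies, which makes their levels uncertain.

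A list of 26 microRNA genes tied to broadly expressed hosts had 24 detected (92.3%) and a median of 1244 CPM. The annotation places 22 of the 26 in a same-strand intron. The list includes gene copies, such as Mir103-1 and Mir103-2 or Mir26a-1 and Mir26a-2, whose levels are uncertain like those of the Mir128 genes. Mir744 led at 33939 CPM ± 3674, then Mir652 (17192 ± 1457), Mir324 (9521 ± 950) and Mir191 (8263 ± 526). Mir324 and Mir191 are among those that the annotation does not place in such an intron. Of the 26, 7 were higher in animal 1, 16 in animal 2 and 3 did not pass, beside the same shares of 26.9 and 24.7% over all tested genes. Among the 764 other microRNA genes in a same-strand intron of a protein-coding gene, 15.4% were detected. These lists hold well-known microRNAs, as the 8 do, and host type was not tested.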

How the data were processed

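The authors deposited whole-number read counts per microRNA gene, 1 table per library. The build is mm10 and the annotation GENCODE M21, per the notes deposited beside the tables; aligner and counter: not given in the sources used here. Of 3 count columns the own-strand one was used. The 4 rows of unmapped, multimapping, unassigned and ambiguous reads were left out of library sizes; 33.5% (animal 1) and 30.4% (animal 2) of reads were counted to genes. Symbols and introns came from M21, with 1 principal host transcript, or the longest, for intron numbers.

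CPM used totals of counted reads. Libraries were compared over 531 genes with at least 10 counts in sum, with TMM factors (1.07 and 0.932, edgeR 4.0.16, R 4.3.3), 0.5 added to counts in log2 ratios, and a threshold of 0.05. A check of the test on simulated counts held no spread between animals and used library totals, so it covers counting noise only. DESeq2 1.42.0, scipy 1.17.1 and RNAfold 2.7.2 were also used. Named genes are the 8 members, genes sharing a member's seed, the 2 closest genes by level, and up to 4 genes per list. The members and lists were chosen with earlier results of these data known. Each side of the comparison is a single library, so p-values of the exact binomial test measure only counting noise. Those of the negative binomial test add a spread set by the same 2 libraries. Labels do not say whether animals shared a litter.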

Additional observations from a re-analysis of the deposited data

How the results depend on the processing

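With n = 2 animals, levels and ratios rest on a single pair. Detection of the members was 7 genes with unstranded counts and with each animal alone, 8 at 1 CPM and 5 at 100 CPM. The summed share of 1.18% became 0.379% over all reads in the tables, whose total is larger, and ran from 1.08 to 1.28% with each animal alone. With library totals only, the exact binomial test called 5 members, 5 of them for animal 1 and 0 for animal 2, and log2 ratios turned to 0.18 for Mir342, 0.024 for Mir383 and 0.18 for Mir218-2. With DESeq2 size factors it called 2 for animal 2, and the ratio of Mir488, never called there, was -0.046. The negative binomial test called 0 members in all, 0 for animal 1 and 0 for animal 2, since it adds a spread that the same 2 libraries set. No filter on low counts, a pseudocount of 1 and unstranded counts changed no call among the 8. The pseudocount enters the log2 ratio and not the test, so it could change no call. Unstranded counts left the reads of the 8 genes as they were, since none lay on the opposite strand. The mir-218 pair, with 263 and 165 reads, is limited by reads that fit both genes as well as by depth. No alternative reassigned multimapping reads.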
